A study of Mus musculus with 4 samples.

Results

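The polyamine genes described here are 10 genes that make, regulate or break down putrescine, spermidine and spermine: Odc1, Amd1, Srm, Sms, Azin1, Oaz1, Sat1, Smox, Paox and Aoc1. They were found by symbol among the 32285 genes of the deposited tables, and each symbol named 1 row. The list was chosen with the whole-section difference between the genotypes in view, so that difference is given for them as a description and without a p-value. The assay was Visium, which captures messenger RNA on a barcoded slide, so that each spot reads a small patch of tissue that can hold cells of several types. The Uox_KO mice were males on the C57BL/6J background that lack exons 2 to 4 of Uox, the gene of urate oxidase, which degrades uric acid in rodents. They serve as a model of hyperuricemia. The Control mice were wild-type males of the same background. There were 2 Uox_KO and 2 Control kidney sections of 10 µm, and the titles name a separate mouse for each (n = 2 per genotype). The age of the mice is not given in the sources used here.

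Polyamines are small cations that bind nucleic acids and are needed for translation and cell growth. Ornithine decarboxylase, the product of Odc1, makes putrescine from ornithine and is the rate-limiting enzyme of synthesis. Amd1 provides the aminopropyl donor, Srm turns putrescine into spermidine and Sms turns spermidine into spermine. Antizyme (Oaz1) binds ornithine decarboxylase and sends it to the proteasome, and the antizyme inhibitor (Azin1) binds antizyme in its place. Breakdown runs through acetylation by Sat1 and oxidation by Paox, through direct oxidation of spermine by Smox, and through diamine oxidase (Aoc1), a secreted enzyme that oxidises putrescine and histamine. In the mouse kidney Odc1 is known as a highly expressed, androgen-induced gene of the proximal tubule.

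Odc1 (ENSMUSG00000011179) lies at chr12:17544808-17551502, and Aoc1 (ENSMUSG00000029811) at chr6:48895255-48909188, in the GRCm38.p6 annotation of RefSeq. The bases just before each start are shown because these are the members whose levels differed most and in opposite directions. Both are on the plus strand, written 5′ to 3′, with matches to GGGCGG on either strand (the GC box) in capitals.
Odc1, chr12:17544623-17544807: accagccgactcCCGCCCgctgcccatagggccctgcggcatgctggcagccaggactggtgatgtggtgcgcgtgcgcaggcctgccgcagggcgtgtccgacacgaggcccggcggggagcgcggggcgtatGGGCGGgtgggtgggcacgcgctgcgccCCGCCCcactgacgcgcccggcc
Aoc1, chr6:48895005-48895254: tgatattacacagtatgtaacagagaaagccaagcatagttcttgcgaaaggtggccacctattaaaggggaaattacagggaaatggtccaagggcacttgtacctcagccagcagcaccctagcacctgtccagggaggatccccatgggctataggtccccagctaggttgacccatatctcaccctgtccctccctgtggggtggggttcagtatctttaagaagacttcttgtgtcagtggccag
The Odc1 stretch holds 3 GC boxes and the Aoc1 stretch none. Windows of 300 bases from RefSeq were at hand for 8 of the 10 members, all but Srm and Azin1. The GC box stands in 35.7% of all 32851 such windows. Among the members it was found in at least 1 window of Odc1, Amd1, Sms, Sat1, Smox and Paox. It was found in no window of Oaz1 or Aoc1. Smox and Paox were higher in Uox_KO, as Aoc1 was. The androgen receptor half-site AGAACA, present in 19.0% of windows, was found in the Sat1 window and not in the Odc1 window. The AP-1 motif TGACTCA, present in 5.2% of windows, was found in the window of a second Aoc1 start. Both strands were searched, the motifs were chosen after the expression values were seen, and a match is a run of letters and not a shown binding site.

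Unique molecular identifiers (UMIs) totalled 53897511 and 57230517 over 2650 and 2590 spots in Uox_KO, against 93524222 and 107962997 over 2528 and 3362 spots in Control, so Uox_KO values rest on fewer molecules. Uox had 0 UMIs in all 4 sections, which allows at most 0.0557 and 0.0524 CPM (UMIs per 1000000 UMIs) in Uox_KO and 0.0321 and 0.0278 CPM in Control, and so it does not check the labels. Markers of injured tubule (8 of 8), macrophage (7 of 7), stroma (6 of 6) and proliferation (6 of 6) were higher in Uox_KO. Adipocyte (5 of 5), urothelium (5 of 5) and smooth muscle (5 of 5) markers were higher as well. Of the lymphocyte markers 7 of 9 were higher and 1 lower. Of the inner medulla and thin limb markers 4 of 5 were higher. Among these, Slc14a2 had a mean of 9.9 CPM in Uox_KO and 0.0109 CPM in Control. Lower were all 8 markers of the S1 and S2 segments of the proximal tubule, 5 of 6 of intercalated cells, 6 of 8 of the thick ascending limb, 6 of 8 of podocytes, 5 of 8 of the distal convoluted and connecting tubule, 4 of 8 of principal cells and 5 of 5 of red blood cells. Of the thick ascending limb markers 1 was higher, and of the podocyte markers 1. Of the S3 markers, 3 of 7 were higher and 3 lower. Of all genes tested, 34.6% were called higher and 32.5% lower, by the rule given below. The summed injured tubule markers stood at 607 to 676 CPM in Uox_KO and 113 to 114 CPM in Control. Krt8 was by far the highest of them in Control, at a mean of 108 TMM-scaled CPM, against 200 in Uox_KO. The summed adipocyte markers stood at 1040 to 1930 CPM in Uox_KO and 2.09 to 16.2 CPM in Control, with 1 of 5 at 0 in a Control section. In these mixed spots, fewer cells of a type and less RNA per cell cannot be told apart. How much of each kidney zone a section held cannot be told apart from them either.

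In whole sections Odc1 and Aoc1 had the members' largest differences between the genotypes, in opposite directions. Odc1 had 278 and 328 CPM in the Uox_KO sections, against 1460 and 1360 CPM in the Control sections. Its level in Control was thus 4.65 times that in Uox_KO, a log2 difference of -2.22 ± 0.10 (SE of the edgeR fit, here and below). Aoc1 had 65.5 and 54.6 CPM in Uox_KO, against 1.02 and 1.3 CPM in Control. That is a 51.6-fold higher mean level and a log2 difference of 5.68 ± 0.14, on 3935 and 3361 UMIs in Uox_KO and 87 and 129 UMIs in Control. The 2 genotypes did not overlap for either gene.

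**Figure D1:**
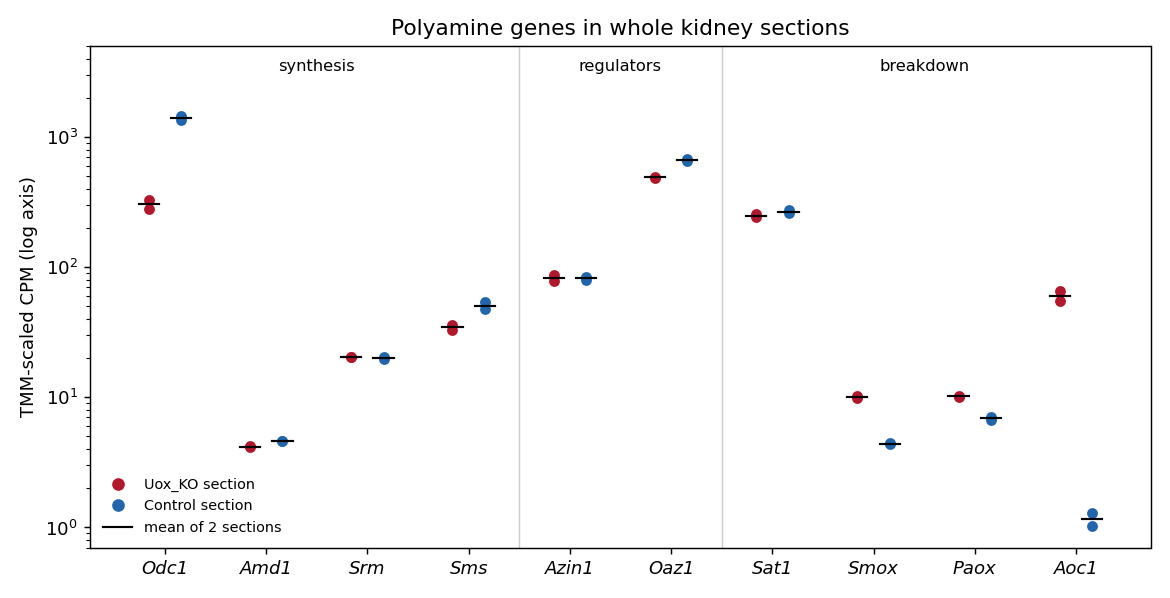
TMM-scaled CPM of the 10 genes in whole sections on a log axis, with a point for each section and a bar for the mean of 2. Odc1 is lower and Aoc1 higher in both Uox_KO sections, while Srm, Azin1 and Sat1 differ little.

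Of the other synthesis genes, Sms was lower in Uox_KO, at 36.1 and 33.0 CPM against 53.5 and 47.6 CPM in Control (log2 difference -0.55 ± 0.08). Amd1 stood at 4.19 and 4.12 CPM in Uox_KO and 4.59 and 4.63 CPM in Control (-0.15 ± 0.10), and reads shared with its near-identical copy Amd2 make its count uncertain. Srm was level, at 20.4 and 20.3 CPM in Uox_KO and 20.3 and 19.7 CPM in Control (0.03 ± 0.06). Of the synthesis genes, Odc1 and, to a smaller extent, Sms were thus lower.

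The regulators went separate ways. Oaz1, the antizyme, was lower at 492 and 487 CPM in Uox_KO, against 658 and 681 CPM in Control (-0.45 ± 0.07). Azin1, its inhibitor, had 78.9 and 86.6 CPM in Uox_KO and 84.7 and 79.0 CPM in Control (0.02 ± 0.07), and was the only member whose genotypes overlapped.

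Among the breakdown genes, Smox had 10.3 and 9.82 CPM in Uox_KO, against 4.39 and 4.43 CPM in Control, which is 2.29-fold higher (1.19 ± 0.09). Paox had 10.1 and 10.2 CPM in Uox_KO, against 6.73 and 7.07 CPM in Control (0.56 ± 0.08). Sat1, the acetylating enzyme (ENSMUSG00000025283), had 241 and 257 CPM in Uox_KO and 274 and 260 CPM in Control (-0.10 ± 0.07). Sat1 therefore did not follow the other 3 breakdown genes, and its sections all lay within a narrow band.

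By the call rule of edgeR's quasi-likelihood test (Benjamini-Hochberg adjusted p under 0.05 over all genes tested), 3 members were higher and 3 lower in Uox_KO. Of all 16369 genes tested, 67.1% were called in either direction, 34.6% higher and 32.5% lower. The genotypes did not overlap for 9 of 10 members, and for 85.7% of all genes. The median log2 difference was -0.04 over the members and 0 over all genes. Since the list was chosen from this contrast, nothing is read from these counts.

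The genes around the pathway were taken from lists chosen with earlier results of these data known, and were tested in the same fit. Of 44 genes, 40 were tested, 9 rose and 18 fell in Uox_KO, and their median log2 difference was -0.17. The total called lies near the 67.1% called over all genes. By direction, the share higher was below the 34.6% of all genes, and the share lower was above the 32.5%. Since the lists were chosen with results known, nothing is read from this. The counts of the single lists below are given as descriptions. In the supply of arginine and ornithine 2 of 7 tested genes were higher and 4 lower. Arg2, the mitochondrial arginase that yields ornithine, rose to 38.2 and 19.9 CPM in Uox_KO, against 1.02 and 1.17 CPM in Control (log2 difference 4.72 ± 0.35, adjusted p = 4.2e-05). The arginine-forming enzymes fell, Ass1 by 1.91 ± 0.11 (adjusted p = 1.7e-05) and Asl by 1.23 ± 0.06 (adjusted p = 8.7e-06) on the log2 scale. Gatm, which uses arginine for creatine synthesis, fell by 1.36 ± 0.18 (adjusted p = 0.00063).

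Among paralogues and further regulators, 1 of 6 tested genes rose and 3 fell. Aoc3, a related amine oxidase of vessel and fat cells, rose to 16.4 and 22.2 CPM in Uox_KO, against 2.81 and 3.53 CPM in Control (2.60 ± 0.17, adjusted p = 2.9e-05). Sat2 fell by 1.14 ± 0.07 (adjusted p = 2.1e-05), the second antizyme Oaz2 by 0.70 ± 0.06 (adjusted p = 6.1e-05) and the second antizyme inhibitor Azin2 by 0.73 ± 0.15 (adjusted p = 0.0046). In the methionine and methylthioadenosine cycle 3 of 7 tested genes fell and none rose. Mat2b, a subunit of S-adenosylmethionine synthesis, fell by 0.80 ± 0.06 (adjusted p = 3.8e-05), and the salvage enzyme Adi1 by 0.27 ± 0.06 (adjusted p = 0.0052). Mat2a, the catalytic subunit, fell by 0.34 ± 0.09 (adjusted p = 0.012). The salvage enzyme Mri1 stood at -0.18 ± 0.07 (adjusted p = 0.053).

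Spermidine is also the donor for hypusine, a modified residue of the translation factor eIF5A, and 2 of 4 genes of that step fell, where 67.1% of all genes were called. Eif5a fell by 0.34 ± 0.07 (adjusted p = 0.0038) and Dohh by 0.23 ± 0.06 (adjusted p = 0.015). Dhps (-0.08 ± 0.07, adjusted p = 0.32) and Eif5a2 (0.10 ± 0.14, adjusted p = 0.52) did not pass. The Dohh call was lost without Uox_KO replicate 2 (-0.18, adjusted p = 0.077) and without Control replicate 2 (-0.20, adjusted p = 0.084). The Mat2a call was lost without either Control section (adjusted p = 0.052 and 0.078).

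Of 11 polyamine transport genes, 5 rose and 3 fell, again where 67.1% of all genes were called. Slc22a3, an organic cation carrier, rose to 2.38 and 2.47 CPM in Uox_KO, against 0.106 and 0.233 CPM in Control (3.80 ± 0.30, adjusted p = 5.6e-05). The proton exchanger Slc47a1 fell by 1.13 ± 0.07 (adjusted p = 2.3e-05). Gpc1, a proteoglycan that takes part in polyamine uptake, rose by 0.85 ± 0.08 (adjusted p = 0.00013). Among genes that handle histamine and aldehyde products, 1 of 5 rose and 3 fell. The histamine methyltransferase Hnmt fell by 1.13 ± 0.08 (adjusted p = 3.3e-05) and the aldehyde dehydrogenase Aldh9a1 by 1.03 ± 0.07 (adjusted p = 2.5e-05). Aldh2 fell by 0.38 ± 0.07 (adjusted p = 0.0036). Hdc, which makes histamine, rose by 1.22 ± 0.29 (adjusted p = 0.0082) on 27 and 30 UMIs in Uox_KO and 15 and 22 UMIs in Control, and its call was lost without Control replicate 1 (1.06, adjusted p = 0.072).

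Since Odc1 is androgen-induced in the mouse kidney, 7 further genes known for androgen response in the proximal tubule were set beside it. Of these, 6 fell and 1 rose, with a median log2 difference of -1.52. Of all genes, 32.5% were called lower, and the median over all genes was 0. This list too was chosen with earlier results of these data known, so nothing is read from its count or median. Slco1a1, an organic anion carrier, had 32.3 and 39.4 CPM in Uox_KO, against 437 and 407 CPM in Control (-3.56 ± 0.11, adjusted p = 2.3e-06). Cyp4b1, a cytochrome P450, had 1070 and 1280 CPM in Uox_KO, against 6840 and 6280 CPM in Control (-2.48 ± 0.12, adjusted p = 9.7e-06). Acsm3 (-1.54 ± 0.13, adjusted p = 7.9e-05) and Nudt19 (-0.79 ± 0.08, adjusted p = 0.00019) also fell. The list shares Acsm3 and Cyp7b1 with the markers of the S3 segment used below. Markers of the S1 and S2 segments fell with these genes (8 of 8, median -2.20), and their part in these differences was not tested.

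To place the members along the nephron, spots were ranked in each section by the mean of z-scored marker levels of a segment, and the top 10% of spots for a segment formed its class, each spot joining the class in which it ranked best. These classes are ranges of a score and not pure cell types. UMIs were summed per class and section, and the 32 sums of 8 classes were fitted together with the section as a block. In 7 classes 3 to 7 of the 10 leading genes were the class's own markers in each genotype, and no other list had more. The S3 class held 3 own markers among the 10 in both genotypes. In Uox_KO the principal cell class held 4 own markers and the urothelium markers Krt5 and Upk3a. In Control the thick ascending limb class was led by the immunoglobulin gene Igkc and held 5 own markers. Spots ranked highest on 5 inner medulla and thin limb markers held 1 of those markers and 3 fat cell markers (Cfd, Ucp1 and Adipoq) among their 10 leading genes in Control. That set is therefore given no name and not compared between the genotypes. It stays in the fit, and the fit was repeated without it. The S1 and S2 markers summed to 3020 and 2970 CPM within their class in Uox_KO and to 4280 and 4180 CPM in Control. That was 3.19 and 2.56 times the median of the other classes in Uox_KO, and 1.66 and 1.92 times in Control.

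Averaged over both genotypes, the proximal classes held the highest levels of several members. In S1 and S2 spots Odc1 was higher than in the mean of the other classes by 0.79 ± 0.07 (adjusted p = 3.3e-11) and Sms by 0.99 ± 0.07 (adjusted p = 4.1e-13) on the log2 scale. There 5 members were higher and 1 lower, where 48.1% of all genes were called. Within Control alone Sms was the only member called there (0.63 ± 0.09, adjusted p = 2.6e-06), where 28% of genes were called. Odc1, Azin1, Oaz1, Sat1 and Smox were not called there in Control, at -0.13 to 0.04. In S3 spots, the straight proximal tubule, 6 members were higher and none lower, where 56.1% of genes were called, and Sat1 led with 0.57 ± 0.04 (adjusted p = 1.9e-14). Srm was higher there by 0.38 ± 0.07 (adjusted p = 2.9e-05) and Odc1 by 0.34 ± 0.07 (adjusted p = 0.00016). Within Uox_KO alone Odc1 lay at 0.07 ± 0.11 in S3 spots (adjusted p = 0.64).

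Outside the proximal tubule most calls were downward. In podocyte spots 1 member was higher and 5 lower (46.5% of genes called). Smox, the spermine oxidase, was the higher one, by 0.76 ± 0.14 (adjusted p = 3.8e-05). Of the called members Azin1 was lowest, at -0.39 ± 0.06 (adjusted p = 1.1e-06). In distal convoluted and connecting tubule spots Sms (-0.61 ± 0.11, adjusted p = 3.7e-05) and Sat1 (-0.29 ± 0.04, adjusted p = 1.9e-06) were lower, with 30.4% of genes called. In intercalated cell spots 3 members were lower, led by Odc1 (-0.50 ± 0.08, adjusted p = 2.3e-05), with 22.3% of genes called. In thick ascending limb spots Sat1 alone was called, at 0.25 ± 0.04 (adjusted p = 2.1e-05), with 10.9% of genes called. In principal cell spots no member was called by edgeR, 1 reached an unadjusted p under 0.05, and 7.1% of genes were called. Over both genotypes, Amd1, Paox and Aoc1 were called in none of the 7 classes. Within Uox_KO alone Aoc1 was lower in distal convoluted and connecting tubule (-0.76, adjusted p = 0.0011), S3 (-0.46, adjusted p = 0.0023) and S1 and S2 spots (-0.37, adjusted p = 0.022). Without the unnamed set these stood at -0.48 (adjusted p = 0.032), -0.19 (adjusted p = 0.19) and -0.11 (adjusted p = 0.53). Some of the calls over both genotypes were lost on leaving out a section. Without either Control section this held for Azin1, Oaz1 and Smox in S1 and S2 spots (highest adjusted p = 0.18, 0.19 and 0.21), and without Control replicate 1 for Sat1 in thick ascending limb spots (0.24, adjusted p = 0.069). Odc1 and Srm in podocyte spots lost theirs without either Control section or Uox_KO replicate 2, where they stood at -0.04 and -0.21. Srm in intercalated cell spots lost its call without either Control section or Uox_KO replicate 1 (-0.20, adjusted p = 0.33). Without the unnamed set, the calls of Smox in S1 and S2 spots (-0.34, adjusted p = 0.063) and of Srm in intercalated cell spots (-0.30, adjusted p = 0.051) were lost.

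The segment pattern of Odc1 was not the same in the 2 genotypes. In S3 spots Odc1 had 202 and 335 CPM in Uox_KO, against 1690 and 1690 CPM in Control. In S1 and S2 spots it had 665 and 690 CPM in Uox_KO, against 1110 and 1160 CPM in Control. Its highest class was therefore S1 and S2 in both Uox_KO sections and S3 in both Control sections. Within Uox_KO alone Odc1 in S1 and S2 spots lay 1.62 ± 0.10 above the other classes (adjusted p = 6e-15, 45.1% of genes called). Within Control alone it lay at -0.04 ± 0.10 there (adjusted p = 0.84, 28% of genes called), and at 0.62 ± 0.10 in S3 spots (adjusted p = 4.2e-06, 40.2% of genes called).

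**Figure D2:**
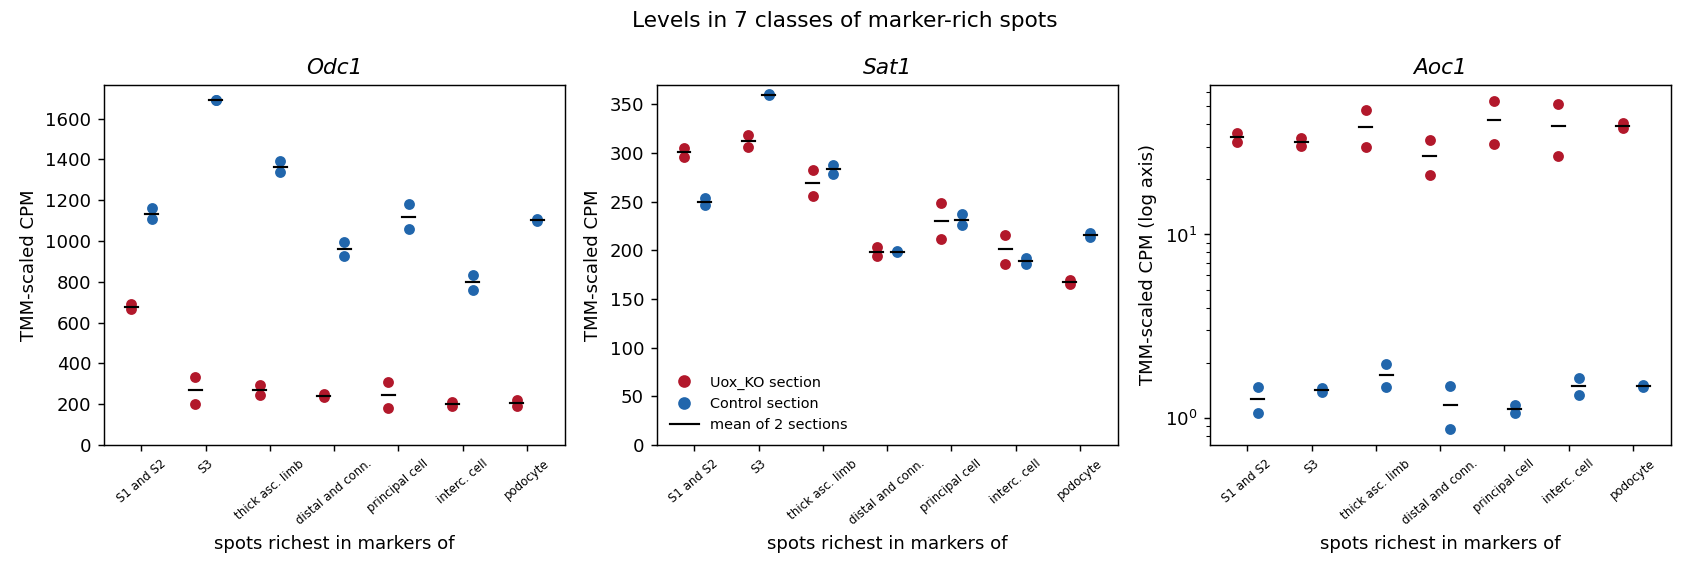
TMM-scaled CPM of Odc1, Sat1 and Aoc1 in 7 classes of marker-rich spots, with Aoc1 on a log axis, a point for each section and a bar for the mean of 2. In Uox_KO the Odc1 level is highest in S1 and S2 spots, at 665 and 690 CPM, and in Control in S3 spots.

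The test of the difference itself takes a class's level against the other classes in Uox_KO less that in Control. It uses the same fit and is not separate evidence. The Uox_KO minus Control difference of Odc1 in S1 and S2 spots was less negative than in the mean of the other classes by 1.66 ± 0.15 (adjusted p = 1.6e-09), and by 1.51 ± 0.15 (adjusted p = 2.9e-08) without the unnamed set. It was called without each section in turn, at 1.60 to 1.74. In S3 spots it was more negative by 0.56, at -0.56 ± 0.15 (adjusted p = 0.013), and at -0.75 ± 0.15 (adjusted p = 0.0012) without the unnamed set. That S3 value rested on the Uox_KO section used, at -0.27 without Uox_KO replicate 1 and -0.88 without Uox_KO replicate 2. It lost its call without either Control section (adjusted p = 0.33 and 0.35) and with the top 20% of spots per class (-0.34, adjusted p = 0.11).

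The Uox_KO minus Control difference in S1 and S2 spots was also above that of the other classes for other members. There 5 members were called, all upward, against 16.4% of all genes: beside Odc1, Sms at 0.73 ± 0.14 (adjusted p = 0.00036), Azin1 at 0.41 ± 0.10 (adjusted p = 0.0024), Sat1 at 0.39 ± 0.08 (adjusted p = 0.00045) and Oaz1 at 0.31 ± 0.08 (adjusted p = 0.0068). Without Control replicate 1 the last 3 and Sms lost their calls (adjusted p = 0.053 for Sms), and without Control replicate 2 Azin1, Sat1 and Oaz1 did. Oaz1 also lost its call without the unnamed set (0.24, adjusted p = 0.058). Sms in S1 and S2 spots had 78.7 and 57.8 CPM in Uox_KO and 68.8 and 71.1 CPM in Control, which overlapped. Sat1 there had 296 and 305 CPM in Uox_KO, against 246 and 254 CPM in Control, without overlap.

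In S3 spots Odc1 was the 1 member called, against 10.3% of genes. In podocyte spots it was Sat1, at -0.33 ± 0.09 (adjusted p = 0.015), against 7.4% of genes. Sat1 there had 169 and 165 CPM in Uox_KO and 218 and 214 CPM in Control, and its call was lost without Uox_KO replicate 2 (-0.23) and without either Control section. Podocyte spots had a median of 6936 and 8841 UMIs in Uox_KO, against 16674 and 19599.5 over all spots. In Control they had 23154.5 and 21170 UMIs, against 37386 and 32038.5. The part of this depth in the difference was not tested. In distal convoluted and connecting tubule spots Azin1 was called at 0.38 ± 0.11 (adjusted p = 0.04), against 3.29% of genes, and its call was lost without Uox_KO replicate 1 (0.18, adjusted p = 0.51), without either Control section (adjusted p = 0.67 and 0.52) and without the unnamed set (0.31, adjusted p = 0.17). No member was called by edgeR in thick ascending limb (1.2% of genes), principal cell (0.986%) or intercalated cell spots (0.843%), where 0, 0 and 1 members reached an unadjusted p under 0.05. Aoc1 was called in none of the 7 classes, and its estimates there ran from -0.50 ± 0.42 in S3 spots to 0.32 ± 0.55 in principal cell spots.

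**Figure D3:**
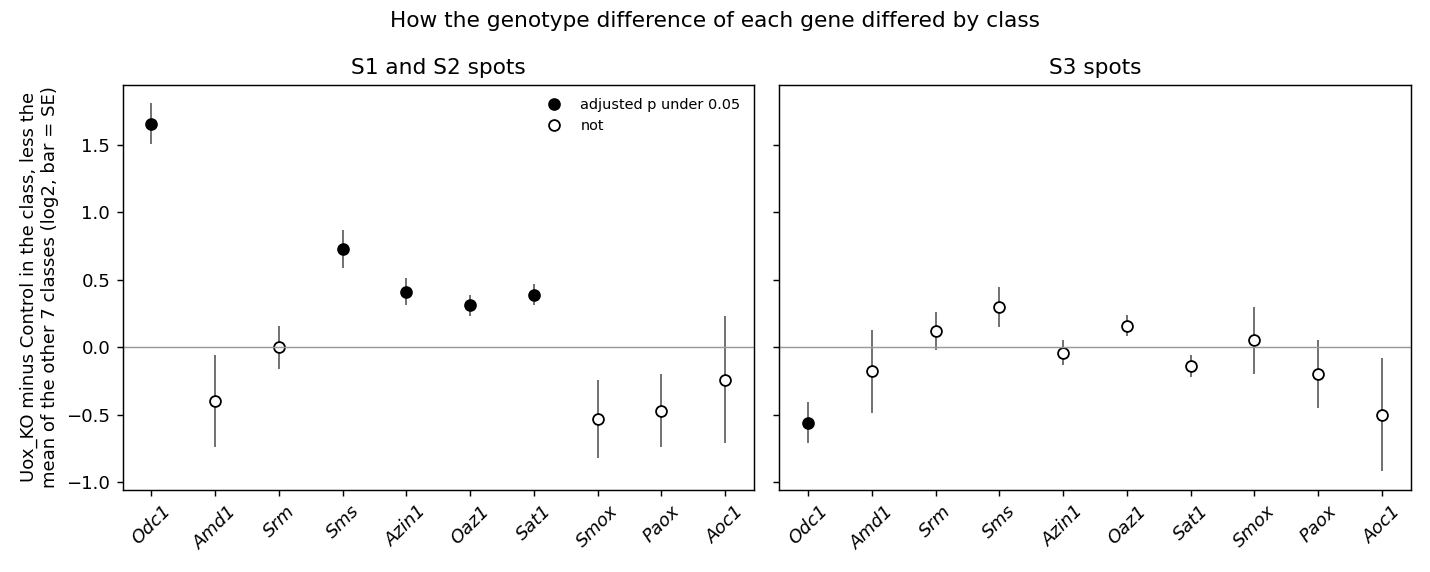
The class by genotype term of each gene in S1 and S2 spots and in S3 spots, as log2 with SE bars from 4 sections, filled where the adjusted p was under 0.05. Odc1 stands at 1.66 in S1 and S2 spots and at -0.56 in S3 spots.

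Taken class by class, Odc1 was lower and Aoc1 higher in Uox_KO in all 7 classes, and neither gene overlapped between the genotypes in any of them. In whole sections 85.7% of all genes did not overlap, and the share within classes was not computed. The classes are parts of the same sections whose contrast chose the members. Nothing is therefore read from the same direction or the lack of overlap over the classes. The log2 difference of Odc1 ran from -2.57 ± 0.20 in S3 spots to -0.67 ± 0.07 in S1 and S2 spots. In between it was -2.34 ± 0.10 in podocyte, -2.27 ± 0.12 in thick ascending limb, -2.10 ± 0.25 in principal cell, -1.97 ± 0.11 in distal convoluted and connecting tubule and -1.94 ± 0.19 in intercalated cell spots. For Aoc1 it ran from 4.53 ± 0.34 in distal convoluted and connecting tubule spots to 5.26 ± 0.39 in principal cell spots. Aoc1 in S1 and S2 spots had 35.6 and 32 CPM in Uox_KO, against 1.07 and 1.47 CPM in Control, and in principal cell spots 53.2 and 31.3 CPM in Uox_KO, against 1.06 and 1.18 CPM in Control. In the Uox_KO sections Aoc1 reached 138 and 147 CPM in the unnamed set, above its level in each of the 7 classes.

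Smox differed by 0.68 ± 0.27 in S1 and S2 spots and up to 1.24 ± 0.35 in distal convoluted and connecting tubule spots, where its sections spread widely at 13.7 and 6.47 CPM in Uox_KO, against 4.66 and 3.94 CPM in Control. Sms differed most in distal convoluted and connecting tubule spots, at 19.9 and 16 CPM in Uox_KO, against 40.9 and 35.7 CPM in Control (-1.07 ± 0.18). Paox stayed between 0.02 ± 0.24 in S1 and S2 spots and 0.87 ± 0.33 in principal cell spots. Srm stayed between -0.25 ± 0.21 in podocyte spots and 0.25 ± 0.21 in distal convoluted and connecting tubule spots. Of the 10 members, 2 were called higher and 4 lower in podocyte spots (52.6% of genes called), 3 and 1 in S1 and S2 spots (41.3%) and 2 and 2 in S3 spots (43.1%). The counts were 2 and 3 in thick ascending limb (40.5%), 3 and 3 in distal convoluted and connecting tubule (37.4%), 2 and 1 in principal cell (30.1%) and 2 and 2 in intercalated cell spots (27.9%). These counts come from the contrast that chose the members and are given without a reading.

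Odc1 was set against the breakdown genes as a ratio of UMIs within a section, which needs no scaling between sections. The log2 of Odc1 over Aoc1 was 2.34 ± 0.35 (SD, n = 2) in Uox_KO and 10.25 ± 0.33 (SD, n = 2) in Control, a difference of -7.91. For Odc1 over Sat1 it was 0.28 ± 0.10 in Uox_KO and 2.40 ± 0.03 in Control, a difference of -2.12. In S1 and S2 spots these differences were smaller, at -5.49 for Aoc1 and -1.0 for Sat1, and in S3 spots -7.20 and -2.50. Without the top 20% of spots by injured tubule score they were -6.88 for Aoc1 and -1.93 for Sat1.

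Aoc1 in Uox_KO was concentrated in spots rich in injury markers. In the top 10% of spots by the score of 8 injured tubule markers, among them Havcr1 and Lcn2, Aoc1 had 310 and 248 CPM in the Uox_KO sections, against 44.3 and 35.0 CPM in their other spots. In Control the same ranking gave 2.11 and 1.43 CPM on 17 and 14 UMIs, against 0.819 and 1.17 CPM in the other spots. The top spots of Uox_KO were 6.99 and 7.09 times the rest and held 45.8% and 47.0% of all Aoc1 UMIs with 10.8% and 11.1% of all UMIs. These CPM are per UMI of the spots counted, without scaling between sections. No test was made, since the markers other than Krt8 are low in Control and no like set exists there.

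Smox followed Aoc1 in these spots at a lower scale, with 30.1 and 26.9 CPM in the top spots of Uox_KO, against 9.30 and 8.53 CPM in the rest. Amd1 had 8.42 and 7.55 CPM there, against 4.22 and 4.05 CPM in the rest, on 49 and 48 UMIs in the top spots. Srm, the spermidine synthase, had 32.7 and 28.6 CPM there, against 21.5 and 21.0 CPM in the rest. Sat1 had 309 and 364 CPM, against 264 and 266 CPM. Odc1 went the other way, with 208 and 214 CPM in the injury-rich spots, against 323 and 371 CPM in the rest. So did Sms, with 27.8 and 27.1 CPM, against 41.7 and 36.6 CPM. In Control the same ranking gave 1130 and 1050 CPM of Odc1 in the top spots, against 1350 and 1260 CPM in the rest. The injury-rich spots of Uox_KO were not shallow, with a median of 19601 and 23430 UMIs, against 16204 and 18859 in the rest. They shared 22.0% and 29.3% of their spots with the macrophage-rich set and 25% and 25.9% with the proliferation-rich set. With the spots ranked highest on the inner medulla and thin limb markers they shared 27.7% and 27.8%. With the S1 and S2 set they shared 0.758% and 0.772%. Aoc1 correlated over spots with the inner medulla and thin limb score at 0.202 and 0.24 in Uox_KO. The part of these overlaps in the Aoc1 level was not tested.

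**Figure D4:**
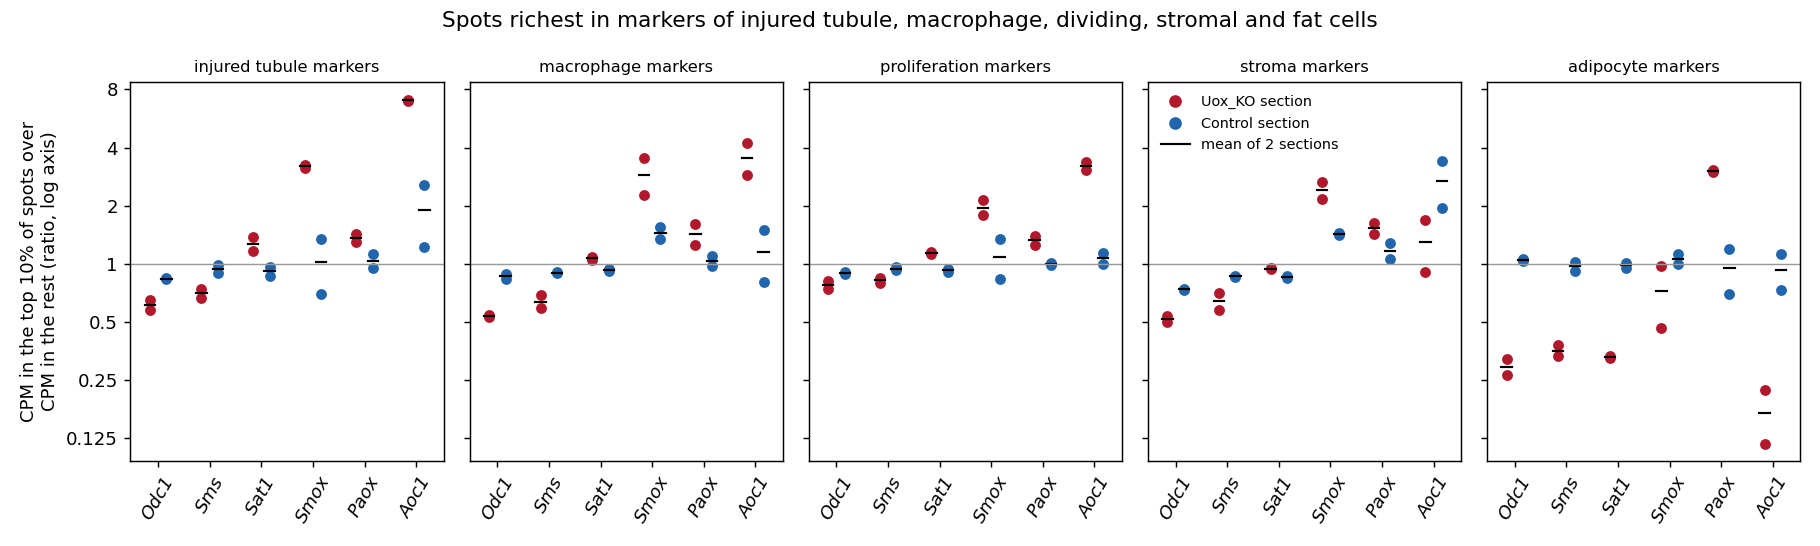
Ratio of the level in the top 10% of spots by a marker score to that in the other spots of the same section, on a log axis, for 6 genes and 5 marker lists, with a point for each section and a bar for the mean of 2. Aoc1 in Uox_KO stands at 6.99 and 7.09 for injured tubule markers and below 1 for adipocyte markers.

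Other marker-rich spots of Uox_KO gave further contrasts. Macrophage-rich spots had 183 and 200 CPM of Aoc1, against 63.8 and 47.6 CPM in the rest, and proliferation-rich spots 188 and 161 CPM, against 61.4 and 47.8 CPM. Stroma-rich spots did not order the sections alike, with 66.2 and 95.4 CPM of Aoc1, against 73.4 and 56.4 CPM. Fat-rich spots had 17.0 and 7.49 CPM of Aoc1, against 77.1 and 64.3 CPM. Odc1 was also lower in macrophage-rich spots, at 175 and 194 CPM, against 322 and 366 CPM in the rest. In stroma-rich spots Odc1 had 171 and 181 CPM, against 319 and 364 CPM. Smox was higher in stroma-rich spots, at 23.4 and 25.5 CPM, against 10.8 and 9.64 CPM. Lower Odc1 and higher Smox were thus not particular to the injury-rich spots.

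Paox was highest in the fat-rich spots, at 29.7 and 28.0 CPM in the Uox_KO sections, against 9.91 and 9.16 CPM in the rest. Spots with over 0.1% of their UMIs from adipocyte and urothelium markers numbered 321 and 377 in Uox_KO and 2 and 16 in Control. Without these spots the whole-section log2 difference of Paox was 0.34, against 0.56 with them. Odc1 (-2.12), Smox (1.23) and Aoc1 (5.80) were about as large without them. Without the top 20% of spots by injured tubule score the whole-section differences were 4.81 for Aoc1, 0.84 for Smox, -2.04 for Odc1 and 0.57 for Paox.

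Correlations over the spots of a section show the same arrangement, as descriptions, since the spots share a library and their levels share depth and neighbouring tissue. Odc1 correlated with the S1 and S2 score at 0.521 and 0.505 in Uox_KO, over 2649 and 2590 spots, and at -0.118 and -0.035 in Control. With the S3 score it correlated at 0.056 and 0.183 in Uox_KO and at 0.479 and 0.508 in Control. Aoc1 correlated with the injured tubule score at 0.511 and 0.557 in Uox_KO and at 0.090 and 0.014 in Control, where its counts are sparse. Sat1 correlated with the S3 score at 0.179 and 0.174 in Uox_KO and at 0.362 and 0.317 in Control, and with the injured tubule score at 0.159 and 0.241 in Uox_KO and at -0.102 and -0.024 in Control.

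**Figure D5:**
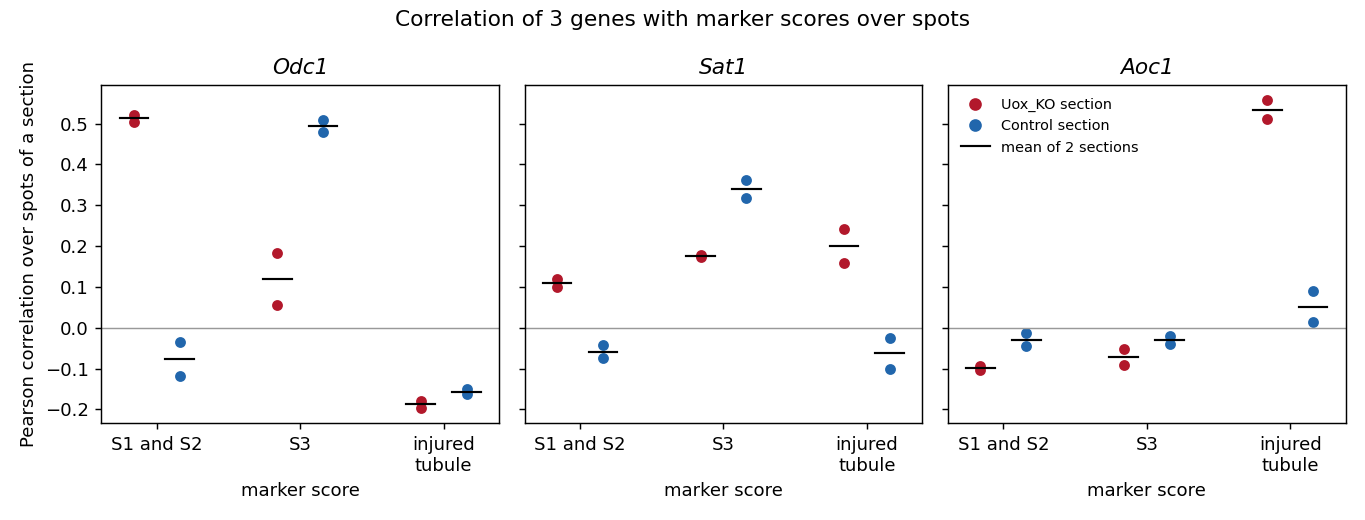
Pearson correlation over the spots of a section between Odc1, Sat1 or Aoc1 and 3 marker scores, with a point for each section and a bar for the mean of 2. Odc1 correlates with the S1 and S2 score at 0.521 and 0.505 in Uox_KO and with the S3 score at 0.479 and 0.508 in Control.

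The spread between spots beyond counting noise, as a coefficient of variation, was highest for Aoc1 in Uox_KO, at 2.14 and 1.95. For Odc1 it was 0.677 and 0.646 in Uox_KO and 0.337 and 0.352 in Control. Oaz1 varied least in Uox_KO, at 0.115 and 0.116. The fullest spots held 96 and 51 UMIs of Aoc1 in the Uox_KO sections and 2 and 2 UMIs in the Control sections.

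Among 4933 genes with at least 20 CPM in every section, those most like Odc1 over spots by mean correlation within the 4 sections were Cyp4b1 (0.661), the organic anion carrier Slc22a6 (0.632), Acy3 (0.621), Acsm2 (0.603) and Cyp2e1 (0.603). Those most like Sat1 were Slc27a2 (0.353), Fth1 (0.347), Cndp2 (0.346), Kap (0.340) and Gpx1 (0.337). Those most like Aoc1 were Tmsb10 (0.256), Spp1 (0.252), Anxa2 (0.232), S100a10 (0.225) and Ly6e (0.220), with lowest section values of 0.023 to 0.040. Slc22a6 is also one of the S1 and S2 markers. Of all genes, 32.5% were called lower and 34.6% higher in whole sections. There all 5 genes most like Odc1 and all 5 most like Sat1 were lower in Uox_KO, and all 5 most like Aoc1 were higher. The genes were picked from these same sections, so nothing is read from these counts. Sat1 itself stood at -0.10, so the genes most like it over spots did not share its whole-section difference.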

How the data were processed

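Per the labels, male kidney sections of 2 Uox_KO and 2 Control mice were assayed with Visium. The authors made the deposited counts, raw UMIs per gene and spot, using Space Ranger 1.3.1; the build is mm10 (both per the submitters' processing notes). Groups and replicate numbers come from the labels. UMIs were summed per section. The test was the quasi-likelihood test of edgeR 4.0.16 in R 4.3.3, after filterByExpr and TMM scaling, with Benjamini-Hochberg adjustment over all genes tested at 0.05. The class sums were fitted jointly, using spots with at least 500 UMIs, which left out 1 spot, and levels scaled to 10000 UMIs per spot. DESeq2 1.42.0, other scaling, filters, thinning, spot shares, left-out spots and left-out sections were tried. The scripts were tested on simulated data. A floor of 3 counts covers counting error only.

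The members and lists were chosen with earlier results of these data known. Named genes are the 10 members, Uox, up to 4 genes of each pathway list with the smallest p, and the 5 genes most like Odc1, Sat1 and Aoc1; 1 gene that the rule names is not reported here. The unnamed set, the fits in 1 genotype and the ratios without fat or injury spots were added after seeing the data. Sections share 1861 to 2539 spot barcodes, which are slide positions from a fixed set. Sequences and gene positions are from RefSeq, GRCm38.p6. The labels do not say whether equal replicate numbers mark a shared litter or run, and the deviations of equal numbers correlated at 0.09 over 16369 genes.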

Additional observations from a re-analysis of the deposited data

Results flagged for a closer look

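Of the class by genotype terms of the members, 8 in the 7 compared classes passed the test of the difference itself (edgeR's quasi-likelihood test, adjusted over all genes), where 16.4% of all genes passed in S1 and S2 spots, 10.3% in S3, 7.4% in podocyte and 3.29% in distal convoluted and connecting tubule spots. Each is the log2 Uox_KO minus Control difference in a class less the mean of the other classes. In S1 and S2 spots they were Odc1 at 1.66 (adjusted p = 1.6e-09), Sms at 0.73 (adjusted p = 0.00036), Azin1 at 0.41 (adjusted p = 0.0024), Sat1 at 0.39 (adjusted p = 0.00045) and Oaz1 at 0.31 (adjusted p = 0.0068). In S3 spots it was Odc1 at -0.56 (adjusted p = 0.013). In podocyte spots it was Sat1 at -0.33 (adjusted p = 0.015), and in distal convoluted and connecting tubule spots Azin1 at 0.38 (adjusted p = 0.04). All but the Odc1 term in S1 and S2 spots lost their call without at least 1 section. All 8 S1 and S2 markers were lower in whole Uox_KO sections, and they summed to 3020 and 2970 CPM in the S1 and S2 spots of Uox_KO and to 4280 and 4180 CPM in those of Control, which was 3.19 and 2.56 times the median of the other classes in Uox_KO and 1.66 and 1.92 times in Control. The part of these markers in the differences was not tested.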

How the results depend on the processing

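The counts of 3 higher and 3 lower members in whole sections held under every scaling, filter, test, thinning, spot set and left-out section tried. The other pathway genes stood at 8 to 10 higher and 16 to 19 lower. Only values near 0 turned sign: Srm was -0.01 without the top 20% of spots by injured tubule score and 0.00 to 0.04 without a section (0.00 without Control replicate 2), and Azin1 was -0.04 to 0.08 without a section (-0.04 without replicate 2 of either genotype). The class by genotype terms depended most on the setting, with 8 calls over 7 classes, 4 with the top 5% of spots, 6 without the unnamed set and 1 to 11 without a section, the lowest without a Control section. The Odc1 term in S1 and S2 spots was called under all alternatives run. Class levels gave 24 calls and 17 to 27 without a section, and the differences within classes 32 and 23 to 34. Leaving out a section leaves a group of 1 that is assumed to vary like the other. The ratio differences were -6.88 for Odc1 over Aoc1 and -1.93 for Odc1 over Sat1 without injury spots, and -7.93 and -2.12 after thinning; scaling cannot change them. With the replicate number as a replicate block, 3 members were higher and 3 lower in whole sections, and 33 calls were made within classes. Depth limits the class sums of Amd1, Smox and Paox and of Aoc1 in Control.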
